A study of Homo sapiens with 4 samples.

Results

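The genes described here mark intestinal identity and the absorptive enterocyte. There are 10 of them, chosen by symbol in the array's probe annotation: the transcription factors CDX1, CDX2 and HNF4A, the cytoskeletal gene VIL1, the adhesion and surface genes CDH17, GPA33 and LGALS4, the lipid carrier gene FABP1 and the digestive enzyme genes SI and DPP4. Probes were found for 9 of the 10 (10 probes, with 2 for GPA33), against 16623 genes measured in all. No probe carried the symbol HNF4A, so its expression is not analysed here. The samples were HT29 and DLD1, established human colorectal adenocarcinoma lines, compared after 24 h in culture. In 1 medium the cells had glutamine (2 mM) and no glucose, and in the other glutamine (2 mM) and glucose (10 mM). Dialysed fetal bovine serum (10%) was present throughout. The arrays were thus HT29 without glucose, HT29 with glucose, DLD1 without glucose and DLD1 with glucose, with 1 single-colour (Cy5) array each. Each line is a single culture model of tumour epithelium, and no label says whether a culture was repeated.

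Intestinal epithelium keeps its identity through a small network of transcription factors. CDX2 and its relative CDX1 are homeobox proteins that set intestinal fate, and HNF4A is a nuclear receptor that acts with them on genes of the brush border and of lipid handling. Their textbook targets include the disaccharidase gene SI and the cadherin gene CDH17. Colorectal tumours keep this program to differing degrees, and CDX2 and villin serve as tissue markers in diagnosis.

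Promoter windows show which of these genes carry some of the letters that the network's factors are known to bind. RefSeq windows (GRCh38.p14, 250 bases before to 50 bases after the start site) matched 7 of the 10 genes, in 8 windows because HNF4A has 2. Letters for CDX factors (TTTATNG or CNATAAA), HNF1 (GTTAAT or ATTAAC), HNF4 (CAAAGTC or GACTTTG) and GATA factors (AGATAA or TTATCT) were searched on both strands. Among all 35116 windows, 9.73% held a CDX match, 6.88% an HNF1 match, 3.37% an HNF4 match and 10.3% a GATA match. Windows of CDX2, FABP1 and SI held a CDX match, while those of LGALS4 and DPP4 held no match to any of these letters. Other forms of the letters were not searched, such as TGATAA, which the LGALS4 window holds. The windows below are those of the gene that differed most between the lines (LGALS4), of the factor that differed most (CDX2) and of both enterocyte genes with a CDX match (FABP1 and SI), with matches in capitals. They lie on the minus strand at chr19:38812896-38813195, chr13:27969266-27969565, chr2:88128013-88128312 and chr3:165078447-165078746.
LGALS4: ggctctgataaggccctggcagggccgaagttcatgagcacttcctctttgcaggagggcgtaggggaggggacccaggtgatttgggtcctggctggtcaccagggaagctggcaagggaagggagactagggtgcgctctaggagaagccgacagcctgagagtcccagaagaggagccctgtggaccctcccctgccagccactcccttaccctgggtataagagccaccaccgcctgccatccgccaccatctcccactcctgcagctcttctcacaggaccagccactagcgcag
CDX2: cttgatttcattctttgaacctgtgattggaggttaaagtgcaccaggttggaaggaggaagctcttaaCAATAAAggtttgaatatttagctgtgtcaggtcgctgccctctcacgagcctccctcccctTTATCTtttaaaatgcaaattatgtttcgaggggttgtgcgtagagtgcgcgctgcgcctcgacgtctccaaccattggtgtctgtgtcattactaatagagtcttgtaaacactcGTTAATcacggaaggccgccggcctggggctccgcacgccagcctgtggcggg
FABP1: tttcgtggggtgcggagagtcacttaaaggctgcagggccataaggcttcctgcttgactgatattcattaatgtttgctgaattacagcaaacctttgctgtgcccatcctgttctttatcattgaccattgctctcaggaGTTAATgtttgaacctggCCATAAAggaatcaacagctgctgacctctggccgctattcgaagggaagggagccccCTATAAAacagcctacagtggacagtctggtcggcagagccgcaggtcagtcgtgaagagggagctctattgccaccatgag
SI: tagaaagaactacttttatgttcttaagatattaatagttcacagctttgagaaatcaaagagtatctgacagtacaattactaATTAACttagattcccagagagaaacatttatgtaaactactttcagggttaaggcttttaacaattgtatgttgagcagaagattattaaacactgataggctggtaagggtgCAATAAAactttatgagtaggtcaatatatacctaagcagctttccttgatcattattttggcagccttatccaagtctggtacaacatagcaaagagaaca
The CDX2 window had a CDX match 181 bases, a GATA match 119 bases and an HNF1 match 3 bases before the start site. In FABP1 an HNF1 match began 108 bases and CDX matches 90 and 32 bases before it, and the last of these overlapped a TATA box (TATAAA, found in 7.33% of windows). In SI the matches were for HNF1 at 166 and CDX at 52 bases. A match describes these letters only and does not show that a factor binds.

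HT29 had far more LGALS4 than DLD1 and far less CDX2 and CDH17, while the other members differed little or by amounts that depended on the scale. The differences did not run one way: in both media LGALS4 was over 2-fold higher in HT29, and CDX2 and CDH17 were over 2-fold lower, although CDH17 was only -0.33 on the log2 scale with glucose once the local background was subtracted. Of the 9 genes, 1 was at least 2-fold higher in both media (background 1.73% of the genes measured) and 2 were at least 2-fold lower (background 1.82%). Taken in either direction, 3 of the 9 differed 2-fold without glucose (background 9.10%) and 4 with glucose, VIL1 being the other (background 5.61%). The median difference over the 9 genes, HT29 minus DLD1 on the normalized log2 scale, was 0.13 without and 0.09 with glucose, beside 0.005 and 0.00 over all genes. These are whole cultures, so fewer cells of a type and less RNA per cell cannot be told apart.

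Values are given below on 2 scales. The deposited intensity is the authors' linear value. The normalized log2 value was computed from the scanner files with an offset of 50, which shrinks the differences of dim genes, so deposited folds are larger. With 1 array a group, a difference in 1 medium has no replicate check. The mean difference between the lines over both media was tested with limma, the medium as a block and p-values adjusted over all 16623 genes. With 1 residual degree of freedom it gave no gene (0.00%) an adjusted p below 0.05 (smallest 0.138), with 3487 genes (21.0%) at an unadjusted p below 0.05, LGALS4, CDX2, CDH17 and DPP4 among them. The same test called 5.10% of genes on the deposited values, 2.08% with a prior variance that follows mean expression (a trended prior) and 0.289% without the block. Of the members, LGALS4, CDX2 and CDH17 were called in the deposited and trended fits, and 0 without the block. Between 85.5% and 87.0% of probes on each array exceeded the blank spots, and the number of arrays limits the precision. With median scaling, genes at least 2-fold higher and lower in HT29 numbered 947 and 555 without glucose and 745 and 371 with glucose, against 755 and 758, and 498 and 435, with quantile normalization.

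Of the transcription factors, CDX2 was far lower in HT29 and CDX1 slightly higher. The CDX2 probe had a deposited intensity of 6.2 without and 4.0 with glucose in HT29, against 148.7 without and 289.4 with glucose in DLD1. Both HT29 arrays lay far below both DLD1 arrays. The spots themselves read 41.9 and 41.0 in HT29, where 95% of the blank spots lay below 36.6 and 37.1, so CDX2 was only just above background in that line. On the normalized log2 scale CDX2 was -2.08 without and -2.85 with glucose (HT29 minus DLD1, mean -2.46 ± 0.54, SD, n = 2 media), with 114th and 29th place from the lowest of all genes. The surroundings of its DLD1 spots were bright (119 without and 210 with glucose, against spots of 209 and 405), and with the local background subtracted CDX2 was -1.23 and -1.74. The limma adjusted p was 0.151. It was 0.044 with the trended prior and 0.018 with the deposited values, and ranged from 0.018 to 0.317 over all settings.

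CDX1 had deposited intensities of 20.3 without and 13.8 with glucose in HT29, against 12.2 and 10.2 in DLD1. Both HT29 values lay above both DLD1 values, by 0.20 and 0.09 on the normalized log2 scale. Such an order without overlap was seen for 26.2% of all genes in this direction and 24.4% in the other, and for 6 and 2 of the 9 members. The limma adjusted p for CDX1 was 0.357, and the mean difference of 0.14 became 0.03 with the local background subtracted.

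VIL1 encodes villin, the actin-bundling protein of the microvillus core. Its deposited intensity was 108.7 without and 209.1 with glucose in HT29, against 68.0 and 62.1 in DLD1. HT29 was thus higher in each medium, with the larger gap where glucose was present. The normalized difference was 0.37 without and 1.14 with glucose (mean 0.75 ± 0.55, SD, n = 2 media, limma adjusted p = 0.330). With the local background subtracted it was -0.07 and 0.48, so the 2-fold count of VIL1 ended there.

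CDH17 encodes liver-intestine cadherin, a cell adhesion protein of the enterocyte's lateral membrane. Like CDX2 it was far lower in HT29, with deposited intensities of 3.0 without and 4.8 with glucose there, against 238.0 and 143.7 in DLD1. The HT29 spots (38.5 and 42.1) again lay just above the blanks. Normalized differences were -2.77 without and -1.99 with glucose (mean -2.38 ± 0.55, SD, n = 2 media), with 46th and 84th place from the lowest. The limma adjusted p was 0.155, or 0.045 with the trended prior and 0.014 with the deposited values (0.014 to 0.601 over all settings). The area around the DLD1 spots was bright as well (194 and 188, against spots of 313 and 218). With this local background subtracted, the difference was -1.57 without and only -0.33 with glucose.

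GPA33 encodes the A33 antigen, a surface glycoprotein of intestinal epithelium. Its brighter probe had deposited intensities of 63.2 without and 48.6 with glucose in HT29, against 49.4 and 48.9 in DLD1. With glucose the lines could not be separated, at -0.07 on the normalized scale for that probe, and without glucose the value was 0.16. The other probe exceeded the blanks on only 2 of the 4 arrays, with deposited values of 2.5 and 1.0 in HT29, against 1.1 and 0.9 in DLD1. The mean of both probes, which stands for the gene, differed by 0.10 and -0.03 (limma adjusted p = 0.839).

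LGALS4 encodes galectin-4, a lectin of the digestive tract that binds galactose-containing glycans and takes part in apical protein traffic. Its deposited intensity was 4196.6 without and 2342.0 with glucose in HT29, against 15.2 and 7.8 in DLD1. The deposited values differed 276-fold without and 300.3-fold with glucose, and the normalized values 57.3-fold and 39.7-fold. On the log2 scale this was 5.84 and 5.31 (mean 5.58 ± 0.38, SD, n = 2 media), the 4th and 10th highest of all 16623 genes. The limma adjusted p was 0.138, or 0.042 with the trended prior and 0.008 with the deposited values (0.008 to 0.292 over all settings). The difference between HT29 and DLD1 was at least 4.54 in either medium under each of the 5 settings that could change it.

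FABP1, the fatty acid-binding protein of liver and small intestine, was dim in both lines. Deposited intensities were 10.8 without and 18.2 with glucose in HT29, against 6.0 and 7.2 in DLD1. HT29 lay above DLD1 in each medium, by 0.13 without and 0.28 with glucose on the normalized scale (limma adjusted p = 0.298). On the deposited scale the same differences were 0.85 and 1.34, so FABP1 passed 2-fold with glucose only on that scale.

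SI encodes sucrase-isomaltase, the brush border disaccharidase that completes starch and sucrose digestion. It had deposited intensities of 18.0 without and 13.8 with glucose in HT29, against 13.1 and 12.3 in DLD1. All 4 arrays were close together. The differences of 0.12 and 0.03 were the smallest in size among members with 1 probe, and the limma adjusted p was 0.552.

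DPP4 encodes dipeptidyl peptidase 4, a membrane exopeptidase that trims peptides at the brush border. Its deposited intensity was 56.9 without and 31.8 with glucose in HT29, against 26.3 and 15.3 in DLD1. HT29 was higher in each medium, and within each line the array without glucose was the higher. The normalized difference between lines was 0.51 without and 0.32 with glucose (mean 0.42 ± 0.13, SD, n = 2 media, limma adjusted p = 0.197). On the deposited scale it was 1.11 and 1.06, just over 2-fold in both media, as for 7.01% of all genes in this direction and 5.70% in the other. With the local background subtracted it was 0.08 and 0.11.

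**Figure D1:**
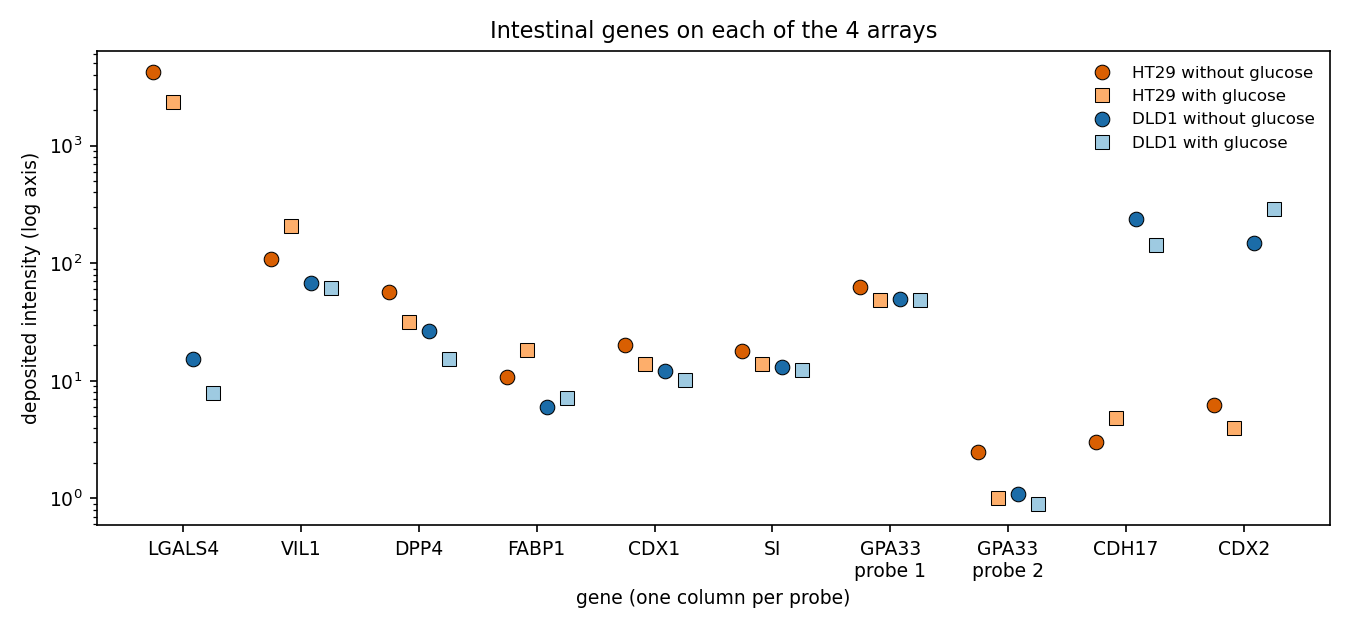
Deposited intensity (linear units on a log axis) of each member's probe on the 4 arrays, 1 point per array. LGALS4 reaches 4196.6 and 2342.0 in HT29, against 15.2 and 7.8 in DLD1, while CDX2 and CDH17 lie between 3.0 and 6.2 in HT29, against 143.7 to 289.4 in DLD1.

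**Figure D2:**
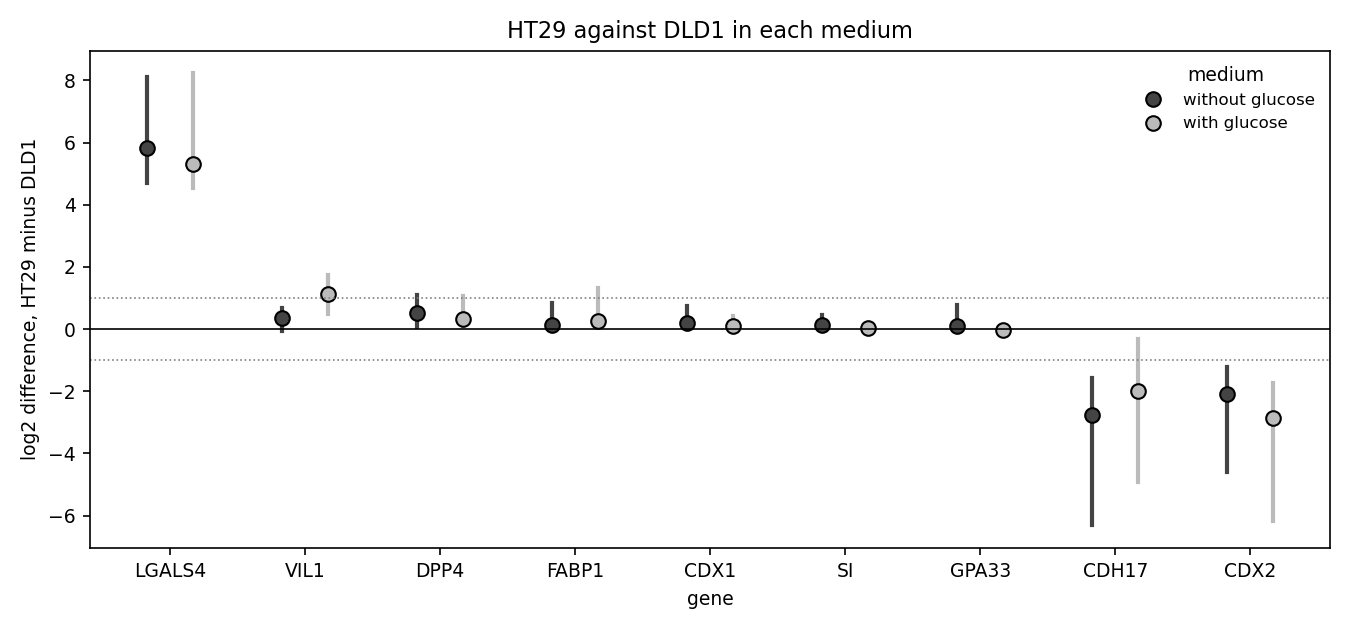
Log2 difference, HT29 minus DLD1, of each member without glucose (dark) and with glucose (light), where points are the normalized values and bars span these and 7 other ways of processing. Dotted lines mark 2-fold. The LGALS4 bars stay above 4.5, and those of CDX2 stay below -1.

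The change of medium was then described within each line. None of the 9 genes differed 2-fold between media in HT29 (background 6.74% of genes in either direction) or in DLD1 (background 1.91%). The median change of the members, without minus with glucose, was 0.09 in HT29 and 0.04 in DLD1 on the normalized log2 scale, beside -0.002 over all genes in each line. The mean change over both lines was tested with limma with the line as a block. It called 0 of the 9 genes and 0 (0.00%) of all genes at an adjusted p below 0.05 (smallest 0.304 over all genes), with 2223 genes (13.4%) at an unadjusted p below 0.05, DPP4 among them.

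In HT29 the largest changes on the normalized scale were those of LGALS4 and VIL1. LGALS4 was 0.71 higher without glucose in HT29 and 0.18 higher in DLD1. Deposited values gave 0.84 and 0.96 for these, so the difference between lines in the change of this gene depends on the scale. VIL1 was -0.66 in HT29 and 0.11 in DLD1, and the HT29 value was 0.01 with the local background subtracted. DPP4 was 0.43 in HT29 and 0.24 in DLD1 (mean 0.33 ± 0.13, SD, n = 2 lines, limma adjusted p = 0.369).

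In DLD1 the changes of CDX2 and CDH17 ran in opposite directions and were the largest among the members on the normalized scale. On the deposited log2 scale LGALS4 was 0.96, CDX2 -0.96, DPP4 0.78 and CDH17 0.73 in DLD1. CDX2 was -0.71 without glucose in DLD1, the line where it was bright, and 0.06 in HT29. CDH17 was 0.72 in DLD1 and -0.06 in HT29. About 5.29% and 5.09% of genes had a change of larger size in DLD1. In HT29 both genes lay just above background in either medium. FABP1 was -0.19 in HT29 and -0.04 in DLD1, CDX1 was 0.15 and 0.04, GPA33 was 0.14 and 0.01, and SI was 0.09 and 0.00.

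**Figure D3:**
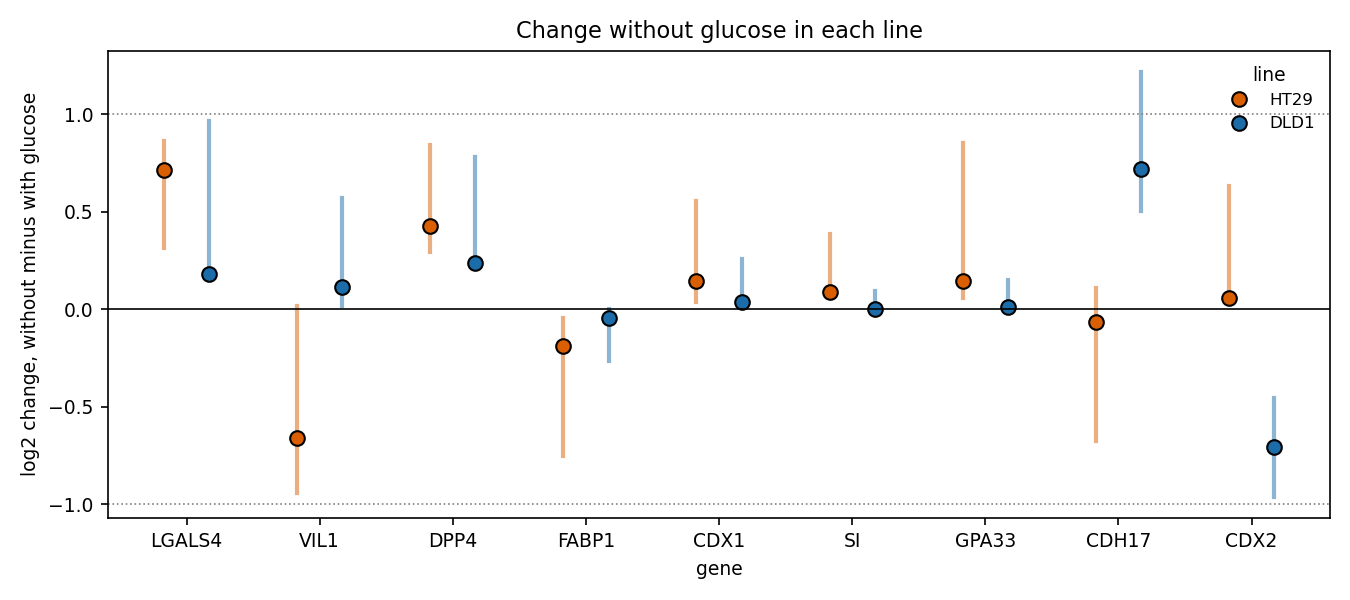
Log2 change, without minus with glucose, of each member in HT29 and in DLD1, where points are the normalized values and bars span these and 7 other ways of processing. Dotted lines mark 2-fold. All points lie between -0.71 and 0.72, and CDH17 in DLD1 passes 2-fold under 1 other setting (1.22 with the local background subtracted).

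Other genes of the intestinal program were taken from lists of related factors, brush border proteins, enzymes and transporters, and lipid handling. Of 27 other transcription factors measured, 2 were at least 2-fold higher in HT29 in both media and 1 was lower (background 1.73% and 1.82%). The median differences were 0.03 without and 0.01 with glucose. PPARG, a nuclear receptor of lipid metabolism, was 1.55 without and 2.95 with glucose (HT29 minus DLD1). HNF4G, the close relative of HNF4A, was 1.38 and 1.17, with deposited intensities of 91.1 and 79.0 in HT29, against 7.4 and 8.7 in DLD1. GATA6, a zinc finger factor of endodermal epithelium, was -1.42 and -1.10. The crypt factor SOX9 was -2.03 and -0.65, and the epithelial factors EHF (0.86 and 1.02) and KLF5 (0.31 and 1.30) lay on the HT29 side. None of these had a limma adjusted p below 0.05 (0.138 for HNF4G, 0.147 for GATA6, 0.222 for PPARG).

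Of 24 brush border genes, all measured, 1 was at least 2-fold higher in HT29 in both media and 2 were lower (background 1.73% and 1.82%). The medians were 0.03 and 0.005. EPS8, which caps and bundles actin in microvilli, was 1.54 without and 1.28 with glucose. The plastin gene PLS3 was -1.50 and -1.45, and the actin nucleator COBL -1.32 and -1.33. EZR, which encodes the membrane linker ezrin, was -0.76 and -0.53, and the intestinal plastin gene PLS1 -1.25 and -0.13. USH1C, which encodes the harmonin scaffold of the tip links between microvilli, was not above background on either DLD1 array. In the mean of both media it was at least 1.86-fold higher in HT29 (limma adjusted p = 0.302), with measured log2 differences of 0.50 without and 1.36 with glucose.

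Of 28 digestive enzymes and absorptive transporters measured, 0 were 2-fold different in both media on the normalized scale (background 1.73% higher and 1.82% lower). In each medium 22 differed by under 0.25, a share not counted over all genes. Small differences were common on this scale: 32.7% of all genes exceeded 0.28 in size with glucose, and 45.1% exceeded 0.20 without. Most of the 28 were dim, with 24 and 25 of them at or below a deposited intensity of 25 in HT29 and 23 on each DLD1 array, where the offset shrinks differences. On the deposited log2 scale CA2 (-1.12 without and -5.11 with glucose) and GGT1 (-1.58 and -1.43) were over 2-fold lower in HT29 in both media. Medians were -0.02 without and 0.01 with glucose. On the normalized scale CA2, which encodes carbonic anhydrase 2, was -0.87 and -2.14. The γ-glutamyltransferase gene GGT1 was -0.68 and -0.54, the intestinal alkaline phosphatase gene ALPI -0.17 and -0.32, and the aminopeptidase gene ANPEP -0.09 and 0.35. Which of the closely related alkaline phosphatase transcripts the ALPI probe detects was not tested. Deposited intensities of the list summed to 639.1 without and 650.2 with glucose in HT29, against 774.4 and 784.3 in DLD1.

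Of 18 lipid handling genes measured, 2 were at least 2-fold higher in HT29 in both media and 0 lower (background 1.73% and 1.82%). The medians were 0.007 and 0.04. PLIN2, a lipid droplet coat gene, was not above background on either DLD1 array. In the mean of both media it was at least 6.03-fold higher in HT29 (limma adjusted p = 0.295), with measured log2 differences of 3.78 without and 1.44 with glucose and deposited intensities of 616.5 without and 81.3 with glucose there. ACSL5, an acyl-CoA synthetase gene, was 2.15 without and 1.19 with glucose. SCARB1, the lipoprotein receptor gene, was 0.45 and 0.63.

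The labelled tissue was checked with epithelial markers. All 9 measured genes were above background on all 4 arrays, and their deposited intensities summed to 35862 without and 41812 with glucose in HT29, against 28823 and 30179 in DLD1. KRT20, a keratin of differentiated colon epithelium, was the 1 marker at least 2-fold higher in HT29 in both media (2.89 and 2.42). Medians were -0.08 without and 0.24 with glucose. Fibroblast and muscle markers summed to 144.6 and 151.0 in HT29, against 151.1 and 153.8 in DLD1. Of these sums DCN gave 94.2 and 92.7 in HT29, against 86.6 and 91.9 in DLD1. COL1A1, COL1A2 and COL3A1 were not above background on any array, and 0 of 7 differed 2-fold on the normalized scale. Most were dim, and on the deposited log2 scale VIM was -1.61 without and -1.17 with glucose and LUM 2.25 and 3.71. LUM was not above background in DLD1.

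Single markers of other cell types moved with the lines. Of 8 measured hepatocyte markers, SERPINA1 (3.14 without and 3.04 with glucose) and APOH (3.78 and 3.62) were higher in HT29. That list summed to 1362 and 1183 in HT29, against 57.2 and 51.9 in DLD1, while ALB and FGB were not above background on any array. Of 6 measured blood cell markers only LYZ, the lysozyme gene, differed 2-fold in both media (6.76 and 8.27). The list summed to 6801 and 15688 in HT29, against 151.8 and 135.5 in DLD1, and PTPRC was not above background on any array.

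Goblet cell markers (10 measured, medians -0.08 and -0.04) included TFF3 at -2.39 without and -1.12 with glucose. It was the 1 marker 2-fold lower in both media on the normalized scale, where KLK1 was -2.82 and -0.69. On the deposited log2 scale KLK1 (-4.18 and -1.30), REP15 (-1.60 and -1.14) and ZG16 (-2.51 and -1.92) were over 2-fold lower in both media as well. ZG16 was not above background in HT29. SPDEF lay on the HT29 side, at 0.31 without and 1.10 with glucose, or 1.90 and 3.94 on the deposited log2 scale. Deposited intensities of the goblet list summed to 28002 without and 1921 with glucose in HT29, against 13417 and 6032 in DLD1. The sums add every probe of a gene, while values for single genes average its probes on the log scale. On that average AGR2, a disulfide isomerase family gene, was 13536 and 834 in HT29, against 6249 and 2853 in DLD1. No other goblet marker exceeded 328.5 on any array (KLK1 in DLD1 without glucose). MUC2, the main secreted mucin gene, was not above background in DLD1 and was dim in HT29 (deposited 1.9 without and 2.4 with glucose). Its lower limit for HT29 over DLD1 was only 1.02-fold. Of 8 gastric markers and 9 enteroendocrine markers, 0 were 2-fold different in both media. TFF2 was 0.46 without and 1.98 with glucose, and TFF1 was -0.87 and -0.60. The part of these markers in the members' differences was not tested.

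**Figure D4:**
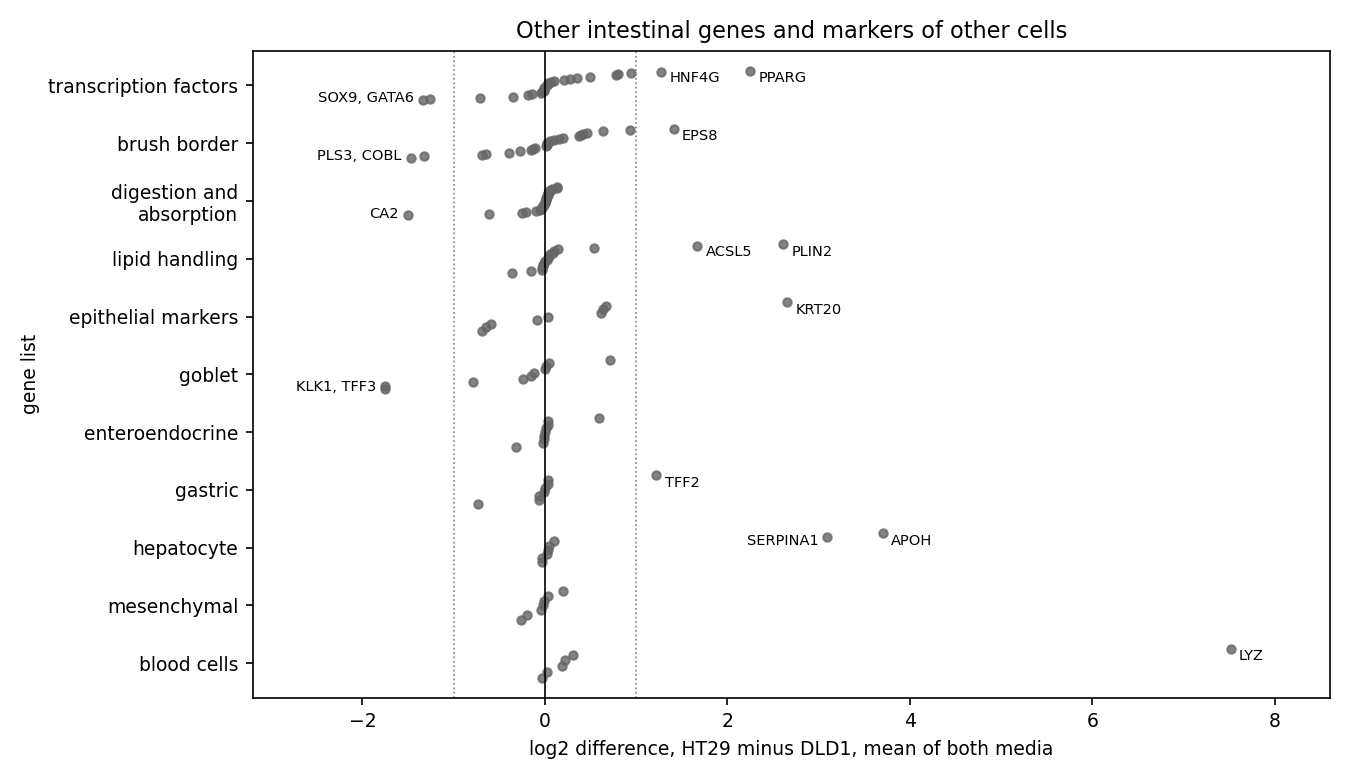
Log2 difference, HT29 minus DLD1 (mean of both media, normalized values), for each measured gene of the related lists and marker lists, 1 point per gene. Dotted lines mark 2-fold and genes at or beyond them are named. Most genes of digestion and absorption sit near 0. PPARG, PLIN2, KRT20, SERPINA1, APOH and LYZ are among those named on the HT29 side. TFF3, KLK1, CA2, PLS3, SOX9, COBL and GATA6 are named on the DLD1 side.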

How the data were processed

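RNA of 4 cultures was measured on 1 single-colour array each, with groups taken from the sample titles. Per the file headers, the authors' scanner files give median intensity for each spot and its surroundings at 635 nm, joined from 3 scanner gains. The authors' deposited value table holds linear intensity with a median of 25.0 on each array. Its columns correlated with the spot medians (r = 1.00 on each array), and empty cells were set to the array's lowest listed value. Its further processing is not stated in those sources.

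Spot medians were corrected with normexp (offset 50) without the local background, which followed the spots (r of the logs 0.904 to 0.966), and quantile normalized in limma 3.58.1 (R 4.3.3). Controls and 1 flagged probe were left out. The 95th percentile of 2680 blanks set the background limit. Probes over this limit on at least 1 array were averaged per gene. Of 24460 probes, 20236 had 1 symbol, 0 had several and 4224 had none. RefSeq synonyms updated 2529 older symbols. A named gene not above background on either array of a line was given a lower limit beside any measured difference. Such genes stayed in the 2-fold counts with their measured values.

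The line effect (medium as a block) and the medium effect (line as a block) were tested with limma over all genes with Benjamini-Hochberg adjustment. p-values measure only the spread between these arrays, which may be technical. In the fits with a block, that spread is how far the line difference departs between media. A true difference between lines in the response to glucose cannot be told apart from technical spread there. Alternatives were local background subtraction, offset 16, median scaling, cyclic loess, the deposited values, no background filter, the brightest probe, no block and a trended prior variance. The members and lists were chosen with earlier results of these data known. Named genes were all members and, in each other list, up to 6 by mean line difference and 3 by mean medium change. MUC2, ZG16 and some markers not above background on any array were named in addition to these.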

Additional observations from a re-analysis of the deposited data

Results flagged for a closer look

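In 3 genes the change without glucose had opposite signs in the lines, on both the normalized and the deposited scale. The change in HT29 minus that in DLD1 was 0.77 for CDX2, -0.77 for VIL1 and -0.78 for CDH17 on the normalized log2 scale. Each rests on 1 array per line and medium, and the difference was not tested. The same difference sets the residual spread of the gene in the limma fits with a block. The HT29 change of VIL1 was 0.01 with the local background subtracted, and that of CDH17 was 0.11 with cyclic loess, so these opposite signs did not hold under each setting. For CDX2 they held under each of the 5 settings that could change them. In HT29, however, CDX2 and CDH17 lay just above background in either medium, and CDX2 changed by only 0.06 there. A sign kept over settings on such dim spots does not show a change in HT29.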

How the results depend on the processing

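Under the 5 settings that can move a gene with 1 probe, 90 of 135 values for single members stayed within 1 SD between media or lines and 45 moved further. Of the main values, only the mean line differences of LGALS4, CDX2 and CDH17 reached 2-fold, and 0 of these turned sign. Smaller values could turn: the mean line difference of GPA33 went from 0.03 to -0.05 with the local background subtracted. The limma call of the line effect went to 3 members (LGALS4, CDX2 and CDH17) with the deposited values and 3 with a trended prior variance, against 0 otherwise. Over all genes that fit called 848, 345 and, without the block, 48. Members at least 2-fold higher in HT29 with glucose numbered 1 with the local background subtracted and 4 with the deposited values, and without glucose 2 with the deposited values. Members at least 2-fold lower with glucose numbered 1 in place of 2 with the local background subtracted, CDH17 being lost. The median line difference without glucose was -0.00029 with the local background subtracted, 0.29 with offset 16 and 0.73 with the deposited values, and with glucose 0.18 with offset 16 and 0.44 with the deposited values. The median change without glucose in HT29 was 0.17 with offset 16 and 0.56 with the deposited values, and in DLD1 0.10 with the local background subtracted, 0.077 with offset 16 and 0.15 with the deposited values. Over all genes, the deposited values gave 2701 higher and 1927 lower in HT29 without glucose and 2027 and 1478 with glucose, medians being 0.18 and 0.13. Offset 16 gave 1103 and 1209 without glucose and 804 and 783 with glucose. The cause of these shifts was not tested. The line effect pairs the arrays by medium and the medium effect by line. Leaving out 1 array of a medium left the difference in the other medium alone, a value with no test. Dim probes, CDX2 and CDH17 in HT29 among them, limit what folds can show.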

Other observations

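Some genes of the related intestinal lists differed more between media than the members did. Values are log2 changes, without minus with glucose, on the normalized scale with 1 array a group and no test within a line. KLF4, a zinc finger factor of differentiating epithelium, was 2.10 in HT29 and 0.36 in DLD1. ELF3, an epithelial ETS factor gene, was 0.42 in HT29 and 1.15 in DLD1, and SOX9 was -1.32 and 0.06. The membrane-bending gene BAIAP2L1 was 1.42 in HT29 and 0.84 in DLD1, and NHERF1, a scaffold gene of the apical membrane, was -1.33 and -0.80. PLIN2 was 2.31 in HT29 and not above background in either medium in DLD1. CA2 was 1.10 in HT29 and -0.17 in DLD1. In the goblet list, AGR2 was 3.79 in HT29 and 1.20 in DLD1. No gene of these lists had a limma adjusted p below 0.05 for the mean effect of the medium.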
